A study of Mus musculus with 8 samples.

Results

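The SOCS family, the suppressors of cytokine signaling, was examined in Th17 cells that carried either WT-ROR-γt or the SUMOylation-defective K187R-ROR-γt. The 8 members, Cish and Socs1 to Socs7, were taken by gene symbol from the deposited table of 22829 genes, and all 8 were present and passed the filter on low values that left 16982 genes for testing. The cells were CD4+ T cells of ROR-γt-/- mice, purified from spleen with magnetic beads, transduced with lentivirus and grown under Th17-polarizing conditions, and both groups shared the ROR-γt deletion and the transduction. RNA seq was performed on 4 samples with WT-ROR-γt (called WT here) and 4 with K187R-ROR-γt (called K187R). The age of the animals, the promoter of the lentiviral vector and whether samples with the same replicate number shared an animal or a culture are not given in the sources used here, so the p-values below measure only the spread between these samples. The series description speaks of WT and mutant mice, whereas the sample labels name reconstituted cells.

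SOCS proteins close a negative feedback loop on cytokine receptors. A cytokine activates JAK kinases on its receptor, the kinases activate STAT transcription factors, and the STATs induce SOCS genes, whose products then dampen the same receptor. Each member has an SH2 domain, which binds phosphorylated tyrosines, and a C-terminal SOCS box, which recruits elongins and Cullin-5 to form a ubiquitin ligase. SOCS1 and SOCS3 also block JAK activity directly. In T cells SOCS3 restrains STAT3 signaling by the IL-6 receptor family, the pathway that promotes Th17 differentiation, whereas Cish and Socs2 are known targets of STAT5 downstream of IL-2.

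The start regions of 4 members (Cish, Socs1, Socs3 and Socs4) were found in RefSeq's set of windows from 250 bases before to 50 bases after a start site, on GRCm38.p6. They were searched on both strands for TTCNNNGAA, the pattern bound by STAT factors, for AGGTCA, the core of the ROR element, and for the pattern of interferon regulatory factors (IRFs), which is GAAA, any 2 bases and GAAA again. The stretches with a match are shown because STATs and IRFs carry cytokine signals to the genome; a match is a description of the letters, not a binding site. The matches are in capitals. The Cish stretch is chr9:107296654-107296683 on the plus strand, with its first match beginning at the annotated start site. The Socs3 stretch is chr11:117969501-117969530 on the minus strand, and the Socs1 stretch is chr16:10785597-10785626 on the minus strand.
Cish, 2 matches to TTCNNNGAA: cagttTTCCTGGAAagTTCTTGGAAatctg
Socs3, 1 match to TTCNNNGAA: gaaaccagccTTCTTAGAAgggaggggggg
Socs1, 2 overlapping matches to the IRF pattern: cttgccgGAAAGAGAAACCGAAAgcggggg
Of all 32851 windows, 8.30% held TTCNNNGAA at least once and 0.457% held it 2 or more times. The IRF pattern was present in 3.44% of windows, and in 0.225% there were 2 or more matches. AGGTCA was present in 16.3% of all windows and in 0 of the 4 members' windows. The Socs4 window held none of these letters.

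Values are given as normalized counts, the reads of a gene divided by the authors' size factor of the sample. The libraries held 52456804 to 74676721 gene-assigned reads. A floor of 3 reads equals 2.54 to 3.56 normalized counts, and every member was far above it in every sample. Clustering of the samples on genes outside the SOCS family and the signaling lists below was cut at 3 sets. Each set held both groups, and the number of sets was chosen rather than estimated. Set 1 had WT replicates 1 and 3 with K187R replicate 1, set 2 joined K187R replicates 2 and 3 to WT replicate 2, and set 3 had the samples numbered 4. Xist, transcribed from the inactive X chromosome, had 13564 to 17373 normalized counts in set 2 and 3.56 to 23.7 in the other 5 samples. The summed level of 4 Y-linked genes was 16663 to 22822 in set 2 and 23204 to 30196 in the others, so both were high in set 2. Defining T cell genes were high in all samples (summed over 7 markers, 159279 to 180552 in WT and 167271 to 186218 in K187R). Myeloid genes were also present, with 0 of 6 at zero. Their sum was 20894 to 61673 in WT and 35580 to 64664 in K187R, lowest in WT replicates 1 and 3 and highest in the samples numbered 4. These samples also had the highest CD8 T cell markers (1025 in WT and 1141 in K187R, against 387 to 556 in the others) and the lowest B cell markers (301 and 357, against 998 to 1596). The part of these other cell types, or of the difference marked by Xist, in the values below was not tested. In bulk RNA, fewer cells of a type and less transcript per cell cannot be told apart.

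Socs3 was the most abundant member per length. Levels were compared between genes only as normalized counts per kilobase of exonic length, for which Socs3 had 7068 ± 1112 (SD, n = 8). Cish followed with 1386 ± 441, Socs4 with 996 ± 190, Socs2 with 879 ± 305, Socs1 with 834 ± 181 and Socs7 with 680 ± 64.7 (SD, n = 8 each). Socs5 had 303 ± 20.3 and Socs6 had 163 ± 26.2 (SD, n = 8 each). Socs3 made up between 49.8% and 67.3% of the family's summed level in a sample. It exceeded Cish in 8 of 8 samples, and likewise Socs7 exceeded Socs5 and Socs5 exceeded Socs6 in 8 of 8. From Cish to Socs7 the order of neighbors was not kept in all samples. Cish was above Socs4 in 6 of 8, Socs4 above Socs2 in 5 of 8, Socs2 above Socs1 in 5 of 8 and Socs1 above Socs7 in 6 of 8, and their spreads overlap. The place of Socs2 depended on the length used. Divided by the longest transcript instead of all exons, Socs2 had 1975 ± 684 and Cish 1894 ± 603 per kilobase (SD, n = 8 each), and 5 of the 8 members kept their rank.

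**Figure D1:**
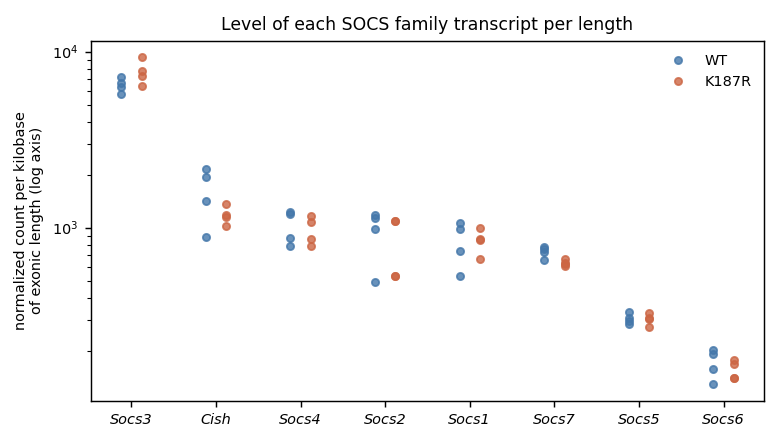
Normalized count per kilobase of exonic length (log axis) of each SOCS member, with 1 point per sample, WT in blue and K187R in orange. Socs3 lies above every other member in all 8 samples, Cish to Socs7 overlap, and Socs5 and Socs6 are lowest.

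Between the groups, 0 of the 8 members passed an adjusted p of 0.05, whether limma, edgeR or DESeq2 was used. Of all genes, limma called 0 (0.0%) and gave 746 (4.39%) an unadjusted p under 0.05. By edgeR, over the same 16982 genes, 0 (0.0%) were called and 729 (4.29%) were under 0.05 unadjusted. DESeq2 was run on the whole table, so its shares have other denominators. It called 27 of 13970 genes (0.193%) and had 886 of 22817 (3.88%) under 0.05 unadjusted. With 1 sample left out the limma count under 0.05 ran from 326 (without WT replicate 1) to 2184 (without WT replicate 4). Of the members only Socs7 had an unadjusted p-value under 0.05 in limma, and also in edgeR and DESeq2. When limma was blocked on sample number there were 3 such members, Cish, Socs3 and Socs7, beside 2046 of all genes (12.0%), and 0 members passed after adjustment. The values of K187R were lower on average for 6 members, beside 51.6% of all genes tested, and higher for Socs1 and Socs3. With quantile normalization Socs5 changed side, so that 5 were lower. The median log2 fold change of the members (K187R minus WT, on the log2(normalized count + 1) scale) was -0.084, beside -0.0062 for all genes tested. None of the 8 members separated the groups completely, whereas 2.46% of all genes did.

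**Figure D2:**
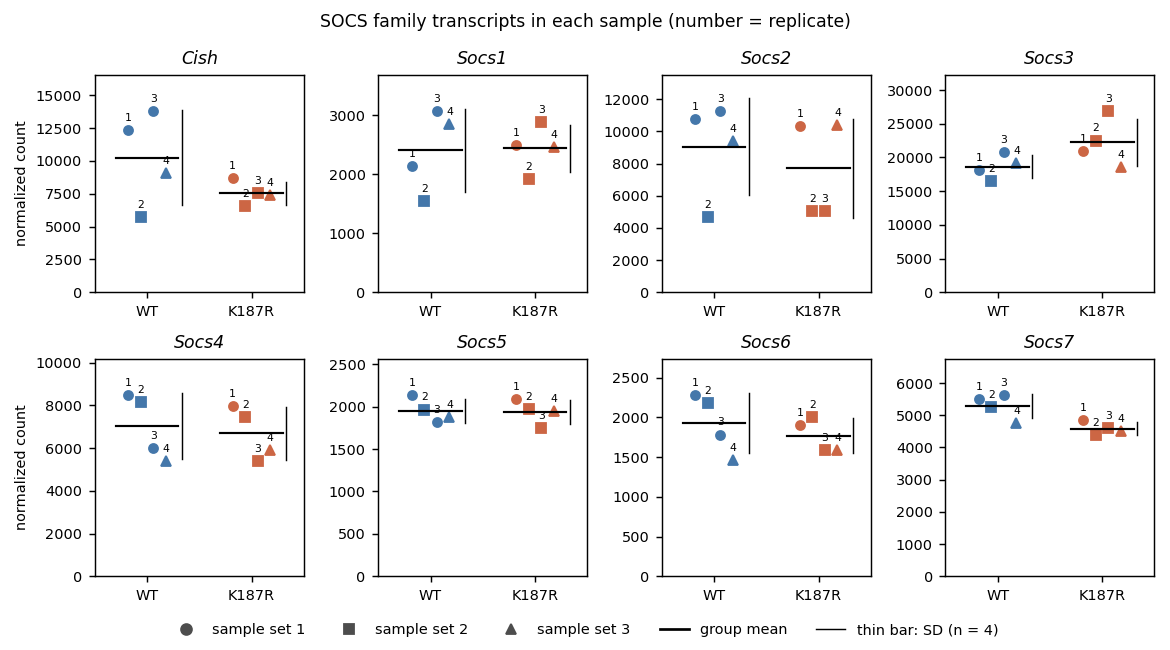
Normalized counts of each SOCS member in each sample, with replicate numbers above the points and the sample set as marker shape; lines are group means and thin bars the SD (n = 4). The groups overlap for every member, Socs2 is low in the 3 samples of set 2, and Socs4 and Socs6 are higher in samples numbered 1 and 2 than in 3 and 4.

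Socs3 and Socs1 encode the members that inhibit JAKs. Socs3 (ENSMUSG00000053113, chromosome 11 of GRCm38, 117966079 to 117970047, minus strand) had normalized counts of 18147, 16559, 20765 and 19105 in WT replicates 1 to 4. In K187R replicates 1 to 4 it had 20972, 22508, 26913 and 18509. The 3 highest values were K187R samples, but K187R replicate 4 lay within the WT range. Mean values were 18644 ± 1761 in WT and 22226 ± 3533 in K187R (SD, n = 4 each). On the log2 scale K187R differed by 0.24 (95% interval -0.021 to 0.51, adjusted p = 0.921 from limma). The exact two-sided permutation p was 0.114, and no regrouping of 4 against 4 can give less than 0.0286. The difference was not even across the sample sets. Set 1 gave a log2 difference of 0.11, set 2 of 0.57 and set 3 of -0.046. With the set in the model it was 0.24 (adjusted p = 0.664 from limma). With set 2 left out the difference fell to 0.029.

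Socs1 (ENSMUSG00000038037, chromosome 16, 10782240 to 10785536, minus strand) had 2150, 1543, 3079 and 2863 in WT and 2492, 1919, 2881 and 2468 in K187R. The groups overlapped almost entirely, and the sample numbered 2 was the lowest of each. The log2 fold change was 0.054 (95% interval -0.43 to 0.54, adjusted p = 0.979 from limma), and an exact permutation test over the samples gave p = 0.83. As a ratio of K187R to WT the interval runs from 0.744 to 1.45.

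Cish and Socs2 encode the members linked to STAT5. Cish (ENSMUSG00000032578, chromosome 9, 107296026 to 107302784, plus strand) encodes CIS, which binds the IL-2 receptor and components of T cell receptor signaling. It had normalized counts of 12369, 5696, 13823 and 9072 in WT replicates 1 to 4, and of 8702, 6579, 7572 and 7371 in K187R. WT replicate 2 was the lowest of all samples, while the other 3 WT samples were above every K187R sample. Mean values were 10240 ± 3623 in WT and 7556 ± 876 in K187R (SD, n = 4 each). This is a log2 fold change of -0.37 (95% interval -0.91 to 0.18, adjusted p = 0.921 from limma), and the exact permutation p was 0.257. Its size depended on single WT samples and on how the sample sets were handled. It was -0.62 without WT replicate 2 (adjusted p = 0.557 from limma), but -0.20 without WT replicate 3. With the set in the model it was -0.18 (adjusted p = 0.810 from limma), and with set 2 left out it was -0.53. K187R was lower within set 1 by a difference of -0.59 and within set 3 by -0.30, and higher within set 2 by 0.31. Of the exonic bases of Cish 11.5% overlap Gm17040 or Gm17041 on the other strand, and reads there cannot be assigned to either gene if strand was not used.

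Socs2 (ENSMUSG00000020027, chromosome 10, 95385362 to 95417180, minus strand), best known as the brake on growth hormone signaling, followed the sample sets. It had 10789, 4693, 11283 and 9422 in WT and 10333, 5054, 5047 and 10405 in K187R. The 3 samples of set 2, which have high Xist, were between 4693 and 5054, and the other 5 were between 9422 and 11283, at least 1.86 times the highest sample of set 2. Set 2 lay below the other samples without overlap for 5.65% of all genes tested, and apart from them in either direction for 14.1%. The sets held 98.8% of the variance of Socs2 on the log2 scale, against a median of 51.6% over all genes tested. Between the groups the log2 fold change was -0.24 (95% interval -1.01 to 0.52, adjusted p = 0.933 from limma), with an exact permutation p of 0.686. With 1 sample left out it ran from -0.53 (without WT replicate 2) to -0.070 (without K187R replicate 3). Set 2 holds 1 WT and 2 K187R samples. Within sets 1 to 3 the difference was -0.095, 0.11 and 0.14, and with the set in the model it was 0.043 (adjusted p = 0.922 from limma). That model called 1 gene of all tested (0.00589%), Ccr6, and 0 members. Il2ra, the IL-2 receptor alpha chain and itself a STAT5 target, was also lowest in set 2, with 72628 in its WT sample and 68686 and 68677 in its K187R samples, but the samples numbered 4 were close to these, with 80266 in WT and 80643 in K187R.

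**Figure D3:**
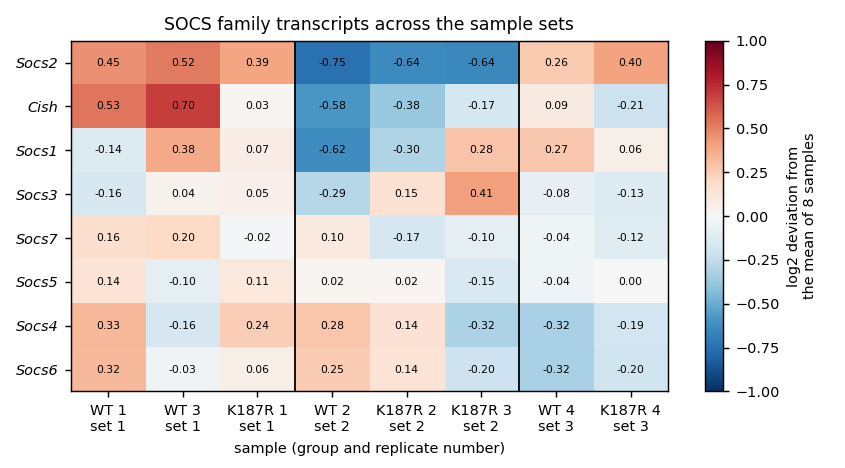
Deviation of each SOCS member from its mean over the 8 samples (log2 scale, colors from blue to red), with samples ordered by sample set. Socs2 is at or below -0.64 in the 3 samples of set 2 and at or above 0.26 in the others, whereas Socs4 and Socs6 follow the replicate number rather than the set.

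Socs4 and Socs5, which have been linked to the EGF receptor, and Socs6 and Socs7, linked to insulin receptor and other kinase signaling, have longer N-terminal regions than the other members. Socs7 (ENSMUSG00000038485, chromosome 11, 97362551 to 97398542, plus strand) had normalized counts of 5503, 5256, 5633 and 4774 in WT. In K187R it had 4846, 4385, 4594 and 4511. K187R was lower in 4 of 4 same-numbered samples, which held for 8.33% of all genes, and only WT replicate 4 fell below K187R replicate 1. Mean values were 5291 ± 379 in WT and 4584 ± 195 in K187R (SD, n = 4 each). K187R minus WT was -0.21 on the log2 scale (95% interval -0.37 to -0.040, unadjusted p = 0.0199, adjusted p = 0.921 from limma). By the exact two-sided permutation test p was 0.0571. An unadjusted p-value under 0.05 with lower values in K187R was found for 1.64% of all genes in limma. The difference had the same sign within the sets, at -0.20, -0.23 and -0.082 for sets 1 to 3. In every set at least 1 group had only 1 sample. The share of all genes with the same sign in every set was not computed, so this is a description. The group held 65.4% of the variance of Socs7, the highest share among the members, beside a median of 9.11% over all genes. This share restates the group difference above and adds no separate support.

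Socs4 (ENSMUSG00000048379, chromosome 14, 47276931 to 47296102, plus strand) had 8490, 8174, 6016 and 5387 in WT and 7983, 7447, 5410 and 5895 in K187R. In both groups the samples numbered 1 and 2 lay above those numbered 3 and 4, and the groups overlapped. Socs6 (ENSMUSG00000056153, chromosome 18, 88665224 to 88927481, minus strand) showed the same order, with 2284, 2177, 1784 and 1460 in WT and 1900, 2010, 1587 and 1589 in K187R. For Socs5 (ENSMUSG00000037104, chromosome 17, 87107679 to 87137839, plus strand) the samples numbered 1 and 2 were between 1966 and 2139 and those numbered 3 and 4 between 1746 and 1947. These 3 members were higher in numbers 1 and 2 without overlap, as were 8.43% of all genes. The replicate number held 93.8% of the variance of Socs4, 94.8% of that of Socs5 and 83.2% of that of Socs6, against a median of 63.5% over all genes. What sets the numbers apart is not given in the labels. The log2 fold changes between the groups were -0.062 for Socs4 (95% interval -0.46 to 0.33), -0.010 for Socs5 (-0.20 to 0.18) and -0.11 for Socs6 (-0.45 to 0.23). For Socs6 it was -0.017 without WT replicate 1 and -0.23 without WT replicate 4. The adjusted p-values were 0.969, 0.992 and 0.934 from limma, and the exact two-sided permutation p was 0.629, 0.886 and 0.571. Socs5 varied least, with its highest sample 1.22 times its lowest, whereas this ratio was 2.43 for Cish and 2.40 for Socs2.

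**Figure D4:**
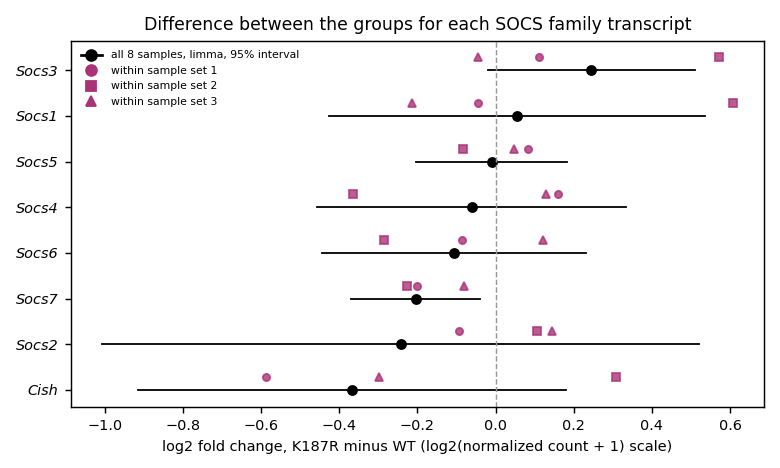
Log2 fold change of each SOCS member, K187R minus WT, with the 95% interval from limma over all 8 samples (black) and the difference within each sample set (purple). Only the interval of Socs7, -0.37 to -0.040, leaves out 0 before adjustment for multiple tests, and the other 7 members have within-set differences on both sides of 0. In every set at least 1 group has only 1 sample.

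The members did not vary as a block. Over the 8 samples, which share their libraries, the Pearson correlation of log2 values was 0.942 between Socs4 and Socs6, 0.838 between Socs4 and Socs5 and 0.775 between Cish and Socs2. It was -0.756 between Socs1 and Socs4 and 0.0048 between Cish and Socs3. For each member the 3 genes most alike were sought among genes with a mean of at least 100, by the same correlation over 8 samples. For Socs3 these were Vav2 (0.985), Stab1, a scavenger receptor of macrophages (0.967), and Foxk1 (0.966). For Cish they were Plekhh1 (0.988), 2700081O15Rik (0.983) and Itpripl1 (0.979). For Socs2 they were Atp1b1, a subunit of the sodium pump (0.988), Nupr1 (0.984) and Myof (0.983). Socs7 was most like the cAMP phosphodiesterase Pde4d (0.976), Isy1 (0.968) and Mrpl35 (0.968). Socs1 was most like Tomm40 (0.998), Tmem184b (0.991) and Dph7 (0.987). Socs4 was most like Gm6472 (0.996), Ankrd13c (0.990) and Ptpn4 (0.990), and Socs6 most like Fyttd1 (0.997), Chm (0.995) and Ikzf5 (0.994). Pex2 (0.977), B230354K17Rik (0.966) and Ammecr1 (0.959) were nearest to Socs5. The samples were placed in sets, and these correlations are given as a description.

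The genes around the SOCS proteins were then counted by role. Of the cytokines that signal through JAKs, 15 of 20 listed were tested and 0 passed in limma, with a median log2 fold change of 0.18. The means were higher in K187R for 13 of the 15 (12 with quantile normalization or median centring), beside 8224 of the 16982 genes tested. The 15 genes were measured in the same 8 samples and are not independent, so this count is a description. Only 8 of them had a mean of at least 50 normalized counts. Of the 15, 0 had an unadjusted p under 0.05 in limma. Lif, a ligand of the gp130 family, had 813 ± 129 in WT and 1126 ± 298 in K187R (SD, n = 4 each), or 0.44 higher on the log2 scale (adjusted p = 0.921 from limma). Il15 had a log2 fold change of 0.40 and Il3, close to the floor, of -0.94 (adjusted p = 0.921 from limma for both).
Of the receptor chains 22 of 23 were tested and 0 passed in limma, with a median of 0.12. At an unadjusted p under 0.05 in limma there were 4 with higher and 1 with lower values in K187R. Over all genes 4.39% had such a p-value in either direction, and 1.64% had it with lower values in K187R. Ifngr1, the ligand-binding chain of the interferon-γ receptor, whose signaling SOCS1 restrains, had 21740, 20440, 21301 and 16392 in WT and 13343, 12721, 12901 and 13161 in K187R. The groups did not overlap, as for 0.989% of all genes in this direction, and the log2 fold change was -0.61 (95% interval -0.82 to -0.40, adjusted p = 0.344 from limma). It was the receptor chain that DESeq2 called. Il10ra, a chain of the IL-10 receptor, had 2015 ± 178 in WT and 2481 ± 195 in K187R (SD, n = 4 each), a log2 difference of 0.30 (adjusted p = 0.921 from limma). Il23r, through which IL-23 activates STAT3, had 57.5 to 149 in WT and 120 to 272 in K187R, a log2 fold change of 1.27 (adjusted p = 0.921 from limma) with overlapping groups.
Of the 4 JAKs and 7 STATs, 11 of 11 were tested and 0 passed, with log2 fold changes from -0.12 to 0.19. Stat3, the factor through which IL-6 acts, had -0.12, and Stat5a had 0.11. The kinase Tyk2 had 0.14.

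The partners of the SOCS box are elongins, cullins, RING proteins and enzymes that charge them. Their means were lower in K187R for 9 of 9 genes, beside 51.6% of all genes tested. The median log2 fold change was -0.12, beside -0.0062 for all genes. The 9 genes were measured in the same 8 samples and are not independent, so this count is a description. All 9 were lower under each scaling tried, but 0 of 9 passed the test. Rnf7, the RING protein paired with Cullin-5, had a log2 fold change of -0.19 and Arih2, a ligase that works with it, of -0.17 (adjusted p = 0.921 from limma for both). For Arih2 the groups did not overlap, with 6431 to 7088 in WT and 5973 to 6319 in K187R, as for 0.989% of all genes in this direction. Rbx1 had -0.12. Among other proteins with a SOCS box 14 of 15 were in the table and tested, 0 passed, and the median was -0.013; Asb2 had 0.55, Wsb1 -0.14 and Asb3 -0.095.
Of 13 other inhibitors of cytokine or T cell receptor signaling 0 passed in limma, with a median of 0.020. Cblb, a ubiquitin ligase that limits T cell activation, had 16530 to 18735 in WT and 13817 to 14938 in K187R without overlap, a log2 fold change of -0.29 (95% interval -0.44 to -0.15, adjusted p = 0.921 from limma), and was called by DESeq2. Ptpn6, the phosphatase SHP-1, had 6900 to 7943 in WT and 8457 to 10792 in K187R, also without overlap, a log2 fold change of 0.31 (adjusted p = 0.921 from limma). Groups that do not overlap were found for 1.47% of all genes with K187R higher and for 0.989% with K187R lower. Ptpn1, a phosphatase that acts on JAKs, had a log2 fold change of 0.25.
Of 16 STAT-induced genes 0 passed, with a median of -0.014. Gbp2, an interferon-induced GTPase, had a log2 fold change of -0.41, Il2ra of -0.35 and Batf of 0.26 (adjusted p = 0.921 from limma for each).

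**Figure D5:**
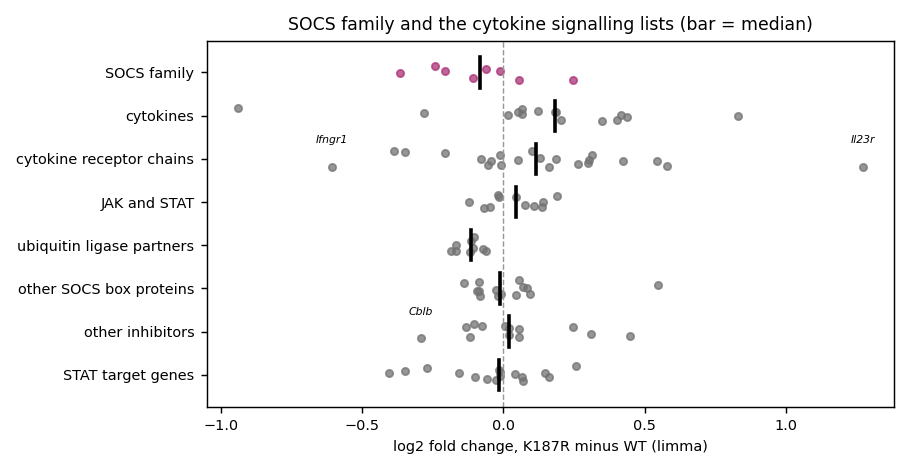
Log2 fold change (K187R minus WT, limma) of each tested gene, by list, with bars at the list medians. The SOCS family (purple) lies between -0.37 and 0.24, Il23r is highest at 1.27 among receptor chains, and the 9 ubiquitin ligase partners all lie below 0.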

How the data were processed

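RNA seq of 8 samples was analyzed. The authors trimmed reads with Cutadapt, aligned them to GRCm38 with HiSat2, used featureCounts with the GENCODE M15 genes, and ran DESeq2. What they deposited is a signal for each gene, namely its reads over the size factor of that sample (0.842 to 1.18). All values (100%) were whole reads within 0.01 of a read, and these recovered reads entered edgeR and DESeq2. The library kit differs between labels (TueSeq) and methods (KAPA mRNA HyperPrep), and use of strand in counting is not given in the sources used here. The main test was limma (eBayes with a trend) on log2(normalized count + 1), over genes with a mean of at least 10, with Benjamini-Hochberg adjustment and a threshold of 0.05; DESeq2 was run on the whole table with its own filter. Limma was the main test because the deposited values are normalized; edgeR and DESeq2 on the recovered reads were alternatives. Samples were grouped by their titles. The sample sets come from average-linkage clustering of 16848 genes outside the gene lists, with the tree cut at 3 sets. That number was chosen rather than estimated. Exonic lengths, coordinates and overlaps are those of GENCODE M21 on GRCm38, used in place of M15.

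The members and lists were chosen with earlier results of these data known. Named genes are every member, 1 further gene that is not reported here, the 3 genes of each list with the smallest limma p-value and the 3 genes most alike to each member; Xist, the sample sets and the IRF pattern were chosen after values or sequences were seen. Reads per sample ranged from 52456804 to 74676721, and the floor of 3 reads covers counting error only, whereas the 95% intervals come from limma and reflect the spread between samples. Alternatives were pseudocounts of 0.5 and 5, other filters, scalings and models, a replicate block and each sample left out. Methods were tested on simulated data that had no sample sets and larger group differences than the members show. That test does not cover the sets or differences as small as those of the members. Python 3.11.15 was used with pandas 2.3.3, scipy 1.17.1, matplotlib 3.10.9 and numpy 2.4.6, and DESeq2 1.42.0, limma 3.58.1 and edgeR 4.0.16 ran under R 4.3.3.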

Additional observations from a re-analysis of the deposited data

Results flagged for a closer look

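Of 60 groups of 4 samples examined for the members, 1 further gene and the 3 genes named from each list, 2 had 1 sample farther from the others than Dixon's test allows, where chance gives about 3. Rnf7 had 2265 normalized counts in WT replicate 4, against 2651 to 2726 in the other WT samples. Wsb1, a protein with a SOCS box, had 6492 in K187R replicate 2, against 5376 to 5525 in the other K187R samples. No SOCS member was set apart in this way.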

How the results depend on the processing

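Settings with the sample set, and the block in DESeq2, were added after seeing the data. The number of members called was 0 under every alternative. Cish, Socs3, Socs6 and Socs7 kept their direction under all 24; Socs7 ranged from -0.25 to -0.17 (adjusted p at least 0.149 in limma, edgeR and DESeq2) and Socs3 from 0.029 to 0.33 (adjusted p at least 0.212). The direction reversed for Socs1 with sample weights (-0.0050), without set 2 (-0.10) and with 1 sample left out (-0.14 to 0.19), for Socs2 with the sample set in limma, DESeq2 and edgeR (0.043, 0.043 and 0.044), for Socs4 without set 2 (0.077) and with 1 sample left out (-0.18 to 0.039), and for Socs5 with quantile normalization (0.0093), with the set in limma, DESeq2 and edgeR (0.013, 0.012 and 0.013), without set 2 (0.055) and with 1 sample left out (-0.047 to 0.038). The cause was not tested.

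Over all genes 0 were called in limma, 3 with sample weights, 27 in DESeq2, 1 with the sample set in limma and in edgeR, 143 with the set in DESeq2, 175 with the replicate block in DESeq2, and 0 to 4 with 1 sample left out, the 4 being without WT replicate 4. Of the cytokines 1 (Lif) was called in DESeq2 with the set and with the block. Of the receptor chains 1 (Ifngr1) was called with sample weights, in DESeq2 and without WT replicate 4 (0 to 1 with 1 sample left out), and 2 (with Il23r) in DESeq2 with the set and with the block. Of the other inhibitors 1 (Cblb) was called in DESeq2 without or with the set, and 2 (with Ptpn6) with the block. The rank by length was kept by 5 members.

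Same-numbered samples deviated together for numbers 1, 2 and 4 (correlation 0.59, 0.66 and 0.63) but not for 3 (-0.092), and 5 of 8 samples correlated best with their own number. Since 1 pair of 4 did not deviate together and the labels do not say what a number shares, the block was not taken as the main design; this does not show that the numbers share nothing. With the replicate block in limma 0 genes were called (0 of the 8 members), and the unadjusted p was 0.0088 for Socs7, 0.023 for Socs3 and 0.045 for Cish (adjusted p = 0.41 for each, limma).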
